A study of Caenorhabditis elegans with 50 samples.

Results

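The genes described here encode the subunits of the proteasome of the nematode Caenorhabditis elegans, in a study of genes that depend on the transcription factor DAF-16 in long-lived animals. Members are gene entries of the deposited table that name a single gene of the classes pas, pbs, rpt or rpn. Of 33458 named entries, 18 met this rule, 8 for the core (pas-5, pas-6, pas-7, pbs-1, pbs-2, pbs-3, pbs-4 and pbs-7) and 10 for the cap (rpt-1, rpt-2, rpt-3, rpt-5, rpt-6, rpn-2, rpn-5, rpn-8, rpn-11 and rpn-12). Another 14 subunit genes occur only in entries that also name other genes, so no value is credited to them alone: pas-1, pas-2, pas-3, pas-4, pbs-5, pbs-6, rpt-4, rpn-1, rpn-3, rpn-6.1, rpn-6.2, rpn-7, rpn-9 and rpn-10. The values are estimated counts of sequenced fragments from polyadenylated RNA of whole young adults, in 50 libraries of 10 strains with 5 libraries each.

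The proteasome is the protease complex that degrades proteins tagged with ubiquitin. Its core particle is a barrel of stacked rings, with alpha-type subunits (pas genes) at the ends and beta-type subunits (pbs genes), some of them proteolytic, inside. A cap sits on the barrel: ATPase subunits (rpt genes) unfold the substrate and feed it into the barrel, and non-ATPase subunits (rpn genes) bind and remove ubiquitin and scaffold the complex. In C. elegans the subunit genes are induced together by a form of the transcription factor SKN-1 when proteasome function fails, and raised proteasome activity, linked to DAF-16 and rpn-6.1, has been described in animals that lack a germline.

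The strains were wild type (WT), the insulin receptor mutants daf-2(e1370) and daf-2(e1368), and the germline-less Notch receptor mutant glp-1(e2141). Each mutant was also studied with daf-16(mg54), a nonsense allele, and with daf-16(mu86), a deletion. These pairs are the double mutants, for example daf-16(mg54);daf-2(e1370). WT and the daf-2 strains spent their first 72 hours at 15 °C and then grew at 20 °C, and egg lay of daf-2(e1370) was set 6 hours early. The labels give this lead for daf-2(e1370) alone, not for its doubles, WT or the other strains. Egg-lay timing and genotype therefore cannot be told apart where daf-2(e1370) is compared with another strain. The glp-1 strains spent 48 hours at 25 °C to remove the germline, with no WT at that temperature analysed here. The 35 libraries of WT and the daf-2 strains and the 15 of the glp-1 strains were therefore fitted apart. A daf-16 effect below is the single mutant minus the mean of its 2 daf-16 doubles on the log2 scale, with its standard error (SE). "Lower" and "higher" refer to a Benjamini-Hochberg adjusted p under 0.05 over all entries tested, from edgeR's quasi-likelihood test. CPM are counts per 1e6 fragments after library scaling, given as mean ± SD with n = 5.

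Library totals ran from 19.89 to 34.25 in units of 1e6 fragments for WT and the daf-2 strains and from 13.82 to 23.81 for the glp-1 strains. The exception was daf-2(e1370) replicate 2, with 2.37. In the doubles of daf-2(e1370), replicates 0 and 1 also stood apart: summed CPM of the 24 major sperm protein genes tested was 55.6 to 447 there, against 1300 to 1910 in the other 6 libraries of these strains. Low sums also occurred elsewhere, down to 513 in daf-2(e1368) replicate 1 and 722 in daf-2(e1370) replicate 1, in libraries that were kept. Except for the comparisons with each double alone, the members' calls in daf-2(e1370), and the listed genes' daf-16 effect in daf-2(e1370), are also given without 5 libraries that stand apart. These are daf-2(e1370) replicate 2 and replicates 0 and 1 of both its doubles. The daf-16 transcript itself was at 216 ± 5.64 CPM in WT, 105 ± 6.37 in daf-16(mg54);daf-2(e1370) and 184 ± 25.6 in daf-16(mu86);daf-2(e1370), and at 203 ± 41.4 in glp-1(e2141), 160 ± 46.8 with mg54 and 433 ± 47.4 with mu86, so the summed entry does not check the mu86 deletion. Markers of intestine, body wall muscle, pharynx, hypodermis, neurons, sperm and the oogenic germline were all detected in WT.

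The 18 members were well measured in every library, from 151 fragments for the lowest value to 21871 for the highest. They lie on chromosomes I (6 members), II (5), III (3), IV (1) and V (3). Per kilobase of coding sequence, the WT level ran from 181 CPM for rpn-12, a subunit of the cap's lid, to 551 CPM for pbs-3, a beta-type core subunit, a ratio of 3.04. The median per coding kilobase was 344 CPM over the 8 core members and 265 CPM over the 10 cap members. Coding sequences of the core members are short, and the longest member is rpn-2, a large scaffold of the cap, at 2895 bases. At 12 of the 18 loci the table holds other entries, 6 members overlap an exon of a gene on the other strand (pas-7, pbs-3, pbs-4, rpn-11, rpt-2 and rpt-6) and pbs-7 overlaps a gene on its own strand. Whether reads were counted by strand is not stated in these sources, so reads of overlapping genes cannot be told apart.

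With daf-16 intact, proteasome transcripts were lower in daf-2(e1370): 13 of the 18 members stood below the mean of the doubles and 0 above it at the threshold. Of all 11774 entries tested, 27.6% were called in this comparison and 13.3% were called lower. The median daf-16 effect was −0.33 over the 18 members and 0.02 over all entries. All 18 estimates were negative, from −0.54 ± 0.12 for pbs-4 to −0.10 ± 0.08 for rpn-2. Against the mg54 doubles alone 12 members were lower (22.3% of all entries called, 10.4% lower). Against the mu86 doubles alone also 12 were lower (21.5% called, 10.3% lower), the same 12 members in both. Both comparisons use the same daf-2(e1370) libraries, and same-numbered mg54 and mu86 doubles deviated together. The counts are therefore not independent. In whole animals, fewer cells of a type and less RNA per cell cannot be told apart. Nor can the genotype and the earlier egg lay, which daf-2(e1370) had and its doubles did not.

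**Figure D1:**
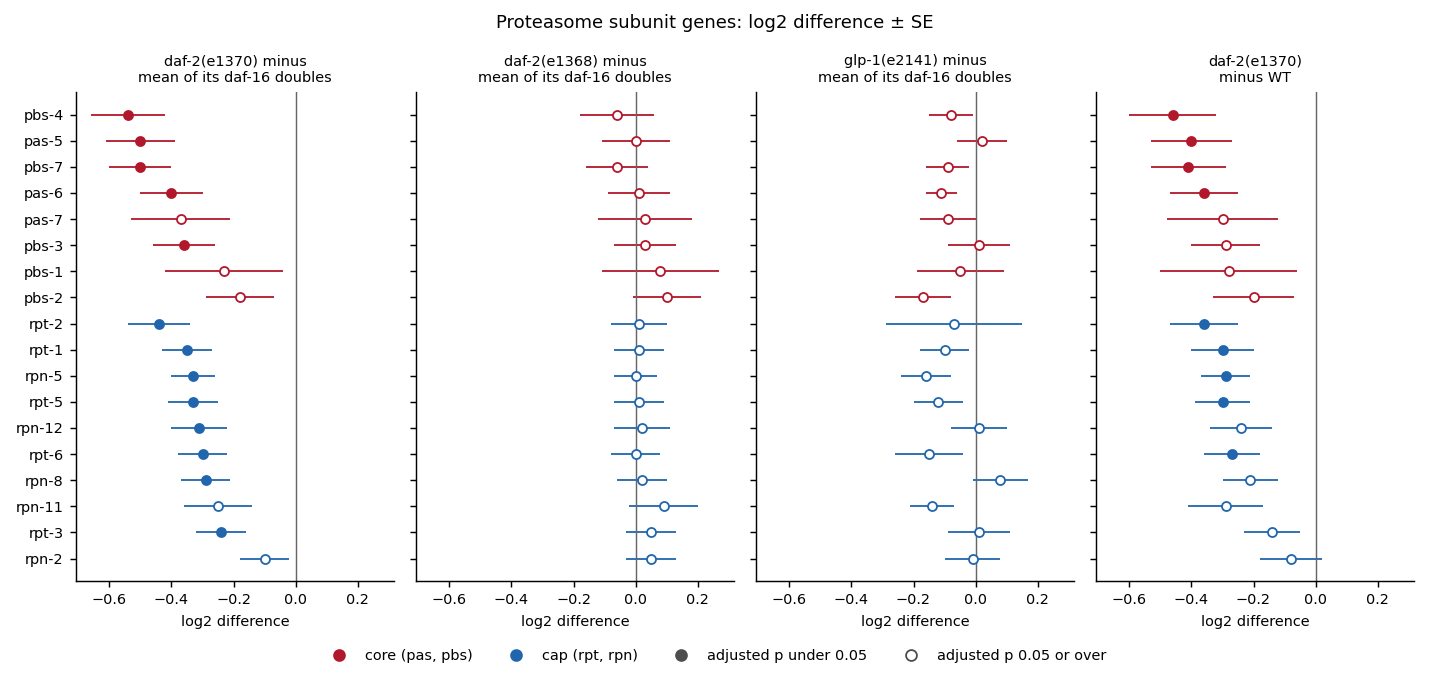
Log2 difference (horizontal axis) with SE for each of the 18 members (rows, core in red above cap in blue) in 4 comparisons, filled where adjusted p is under 0.05. In daf-2(e1370) minus its daf-16 doubles all 18 points lie left of 0 and 13 are filled, in the daf-2(e1368) and glp-1(e2141) panels none is filled, and in daf-2(e1370) minus WT 9 are filled.

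In the core, the alpha-ring members pas-5 and pas-6 were lower, with log2 differences of −0.50 ± 0.11 (adjusted p = 0.000971) and −0.40 ± 0.10 (adjusted p = 0.00251). The third alpha-ring member, pas-7, stood at −0.37 ± 0.16 and did not pass (adjusted p = 0.0746). Among the beta-ring members, pbs-4 (−0.54 ± 0.12, adjusted p = 0.00089), pbs-7 (−0.50 ± 0.10, adjusted p = 0.000396) and pbs-3 (−0.36 ± 0.10, adjusted p = 0.00679) were lower. The beta-ring members pbs-1 and pbs-2, relatives of proteolytic subunits in other animals, did not pass, at −0.23 ± 0.19 (adjusted p = 0.371) and −0.18 ± 0.11 (adjusted p = 0.225).

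In the cap, all 5 ATPase members were lower, with log2 differences of −0.44 ± 0.10 for rpt-2, −0.35 ± 0.08 for rpt-1, −0.33 ± 0.08 for rpt-5, −0.30 ± 0.08 for rpt-6 and −0.24 ± 0.08 for rpt-3 and adjusted p between 0.000686 and 0.0236. These subunits form the ring that unfolds substrates. Of the 5 non-ATPase members, the lid subunits rpn-5 (−0.33 ± 0.07), rpn-12 (−0.31 ± 0.09) and rpn-8 (−0.29 ± 0.08) were lower, with adjusted p from 0.000809 to 0.00943. The deubiquitinating subunit gene rpn-11 (−0.25 ± 0.11, adjusted p = 0.0801) and the scaffold gene rpn-2 (−0.10 ± 0.08, adjusted p = 0.363) did not pass.

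The core member with the largest daf-16 effect, pbs-4 (chromosome I, 3908742 to 3910654 on ce10), stood at 132, 149, 68.3, 137 and 169 CPM in replicates 0 to 4 of daf-2(e1370). In its mg54 doubles the values were 204, 194, 160, 194 and 197 CPM, and in its mu86 doubles 218, 216, 170, 191 and 188 CPM. The shallow replicate 2 was the lowest, and only replicate 4 of daf-2(e1370) reached into the range of the 10 doubles. WT, at 201, 210, 173, 151 and 178 CPM, overlapped both groups. Mean and SD over these 5 libraries were 131 ± 37.8 CPM in daf-2(e1370), 197 ± 20.4 with mu86 and 182 ± 23.6 in WT, and the mg54 mean was 190 CPM.

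The cap member with the largest effect, rpt-2 (chromosome V, within the entry span 6002596 to 6017834 on ce10), showed 339, 349, 231, 313 and 373 CPM in daf-2(e1370). Its mg54 doubles gave 493, 473, 363, 411 and 437 CPM, and its mu86 doubles 507, 487, 376, 390 and 428 CPM. Again 4 of the 5 daf-2(e1370) libraries lay below all 10 doubles and replicate 4 did not. WT stood at 413 ± 37.5 CPM, against 321 ± 54.7 in daf-2(e1370).

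At the other end, pbs-2 (chromosome I, 12967376 to 12968268 on ce10) stood at 130, 181, 141, 149 and 182 CPM in daf-2(e1370), inside and below the 151 to 200 CPM of the doubles. The gene rpn-2 (chromosome III, 6198452 to 6206284 on ce10) stood at 516, 564, 702, 509 and 559 CPM in daf-2(e1370) and at 509 to 684 CPM in the doubles. Its highest value came from the shallow replicate 2, where pbs-4 and rpt-2 were lowest. WT stood at 149 to 213 CPM for pbs-2 and 538 to 687 CPM for rpn-2. Over all 18 members, none had all 5 daf-2(e1370) libraries below all 10 doubles, and 14 had all 5 below the median of the doubles.

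**Figure D2:**
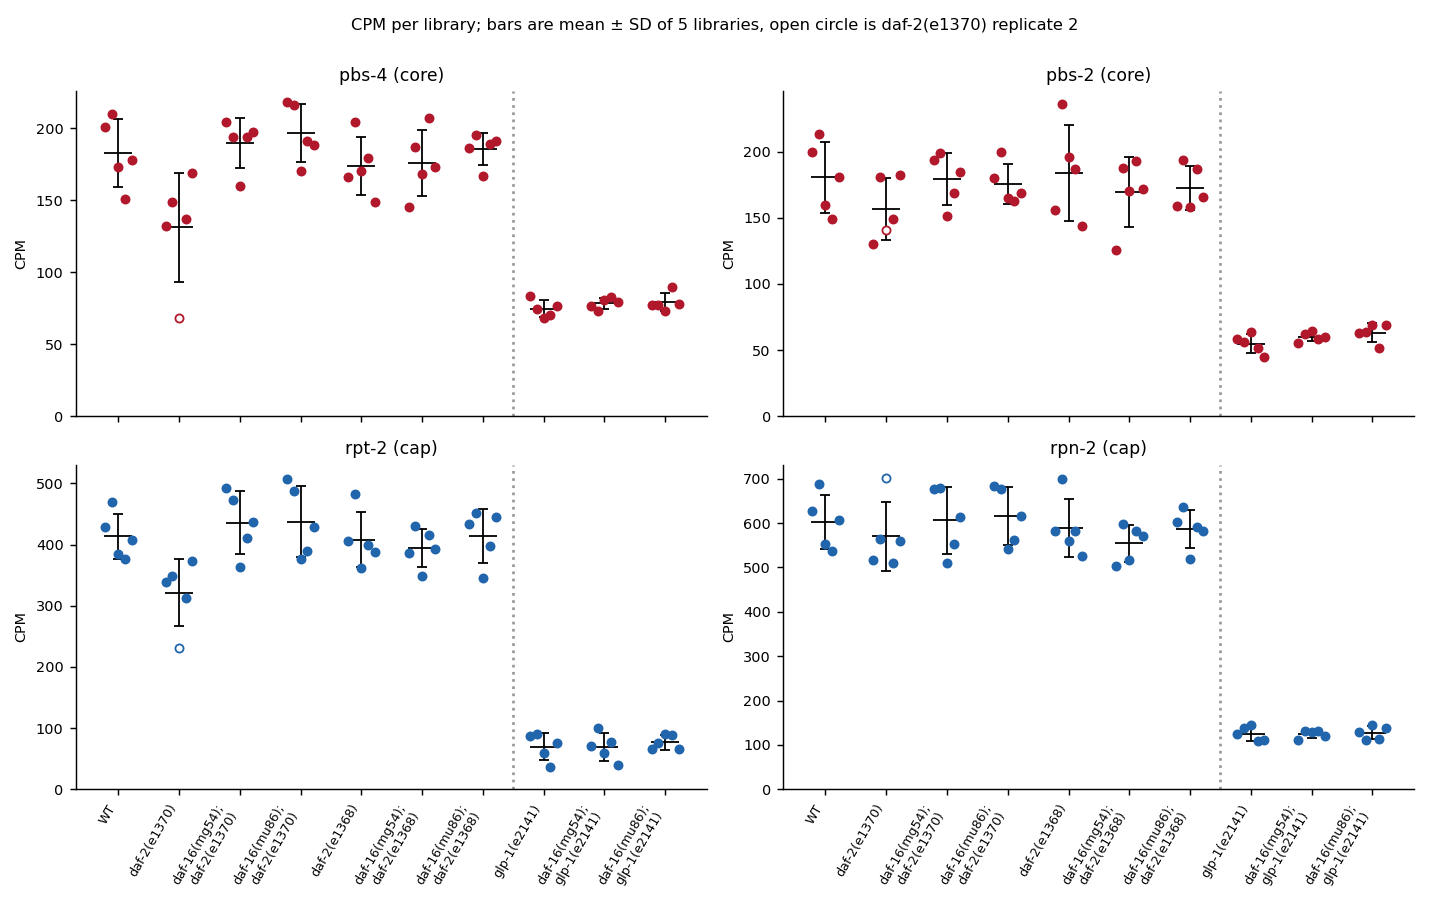
CPM in each library (points) with the mean ± SD of 5 libraries (bars) for the core genes pbs-4 and pbs-2 and the cap genes rpt-2 and rpn-2 in 10 strains, with the separately scaled glp-1 strains right of the dotted line. The open circle is the shallow daf-2(e1370) replicate 2, lowest for pbs-4 (68.3 CPM) and rpt-2 (231 CPM) and highest for rpn-2 (702 CPM) within its strain.

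The size of the difference depended on the libraries that stand apart. Without the shallow daf-2(e1370) replicate 2, 9 members were lower and the median effect was −0.23 (24.8% of all entries called in that fit and 10.5% lower), with pbs-3, rpn-8, rpn-12 and rpt-3 no longer passing. The call for rpt-3 also ended without daf-2(e1370) replicate 3, and without replicate 0 or 1 of daf-16(mg54);daf-2(e1370) or replicate 0 of daf-16(mu86);daf-2(e1370). With replicates 0 and 1 of the doubles left out, 4 libraries in all, 9 members were lower (27.4% of all entries called and 13.5% lower). The removal of all 5 libraries was a choice made after the values were seen, and under it the median effect was −0.12 and 3 members were lower: pbs-4 (−0.31, adjusted p = 0.0204), pbs-7 (−0.28, adjusted p = 0.0325) and pas-5 (−0.25, adjusted p = 0.048), all from the core. In that fit 26.7% of all entries were called and 12.4% were lower, with a median of 0.05 over all entries, so 3 of 18 members is close to the share of all entries. By the members' median, this removal takes the highest libraries from the doubles only and the lowest from daf-2(e1370) only. It therefore narrows the difference by its design, and the replicate numbers left are not matched between the strains.

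Within the shallow replicate 2 the members did not move alike. Set against the mean of the other 4 daf-2(e1370) libraries, the 9 members with the shorter coding sequences (606 to 831 bases) differed by −1.10 to −0.19 on the log2 scale, with a median of −0.66. The 9 with the longer ones (936 to 2895 bases) differed by −0.57 to 0.39, with a median of −0.36 and rpn-2, the longest, at the top. All 8 core members are among the shorter 9. The part of coding length in the difference between core and cap in this library was not tested.

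Compared with WT, daf-2(e1370) had 9 members lower and none higher, where 18.2% of all entries were called and 8.4% as lower. The median difference was −0.29 over the members and 0.02 over all entries. Lower members were pbs-4 (−0.46 ± 0.14), pbs-7 (−0.41 ± 0.12), pas-5 (−0.40 ± 0.13), pas-6 (−0.36 ± 0.11), rpt-2 (−0.36 ± 0.11), rpt-1 (−0.30 ± 0.10), rpt-5 (−0.30 ± 0.09), rpn-5 (−0.29 ± 0.08) and rpt-6 (−0.27 ± 0.09). All 9 were also lower against each daf-16 double. The adjusted p of these 9 ran from 0.0118 to 0.0366, and the count was unsteady. It went to 0 without WT replicate 1, to 3 without WT replicate 0 or daf-2(e1370) replicate 2, and to 5 without WT replicate 4 or daf-2(e1370) replicate 3. Without daf-2(e1370) replicate 2, 17.8% of all entries were called and 7.72% were lower. This share was not computed for the other single libraries left out. With the 5 libraries that stand apart left out, 6 members were lower (23.6% of all entries called and 10.6% lower). Here too the genotype and the earlier egg lay of daf-2(e1370) changed together.

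The daf-2(e1370) strain had the lowest mean CPM among the 7 strains grown at 20 °C for 17 of the 18 members. The exception was rpn-2, at 570 ± 77.9 CPM in daf-2(e1370) and 555 ± 41.5 CPM in daf-16(mg54);daf-2(e1368). Once daf-16 was also mutated, members stood close to WT: the mean of the daf-2(e1370) doubles minus WT had a median of 0.06 and a range of −0.05 to 0.11, with 0 members called (1.3% of all entries called; 0 at an unadjusted p under 0.05 and 0 by DESeq2). The 95% intervals of these 18 differences reached from −0.43 to 0.39, so differences of that size are not excluded.

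In daf-2(e1368), which carries a milder receptor allele, no member passed. The daf-16 effect in daf-2(e1368) had a median of 0.02 and a range of −0.06 for pbs-4 and pbs-7 to 0.10 for pbs-2. No member was called by edgeR (5.01% of all entries called), none had an unadjusted p under 0.05, and DESeq2 also called 0. In daf-2(e1368) replicates 0 to 4, pbs-4 stood at 166, 204, 170, 179 and 149 CPM, within the 145 to 207 CPM of its 10 doubles. For rpt-2 the values were 406, 482, 362, 400 and 388 CPM, against 345 to 451 CPM in the doubles. Only the replicate 1 value lay outside that range. The 95% intervals of the 18 effects reached from −0.31 to 0.46. The comparison of daf-2(e1368) with WT called 0 members as well (2.06% of all entries called; 0 at an unadjusted p under 0.05 and 0 by DESeq2), with a median of −0.04. The mean of its doubles minus WT had a median of −0.05 and 0 members called (0.425% of all entries; 0 at an unadjusted p under 0.05 and 0 by DESeq2).

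Tested directly in edgeR with strain as the only term, the difference between the receptor alleles passed for 1 member. The daf-16 effect of daf-2(e1370) minus that of daf-2(e1368) was negative for all 18 members with a median of −0.34, and 14 had an unadjusted p under 0.05. After adjustment only rpt-2 passed (−0.45 ± 0.13, adjusted p = 0.0436), where 4.71% of all entries did and 1.49% were lower. This call held when 6 of 30 libraries were left out in turn (daf-2(e1370) replicates 0, 1 and 4, daf-2(e1368) replicate 4, and replicate 2 of either daf-2(e1370) double), and was lost for each of the other 24, with adjusted p from 0.0345 to 0.187. In daf-2(e1370) minus daf-2(e1368) rpt-2 was likewise the only member lower (−0.34 ± 0.11, adjusted p = 0.0458), where 8.43% of all entries were called and 2.77% were lower. That call held only without daf-2(e1370) replicate 1 or 4. Neither call passed with the 5 libraries that stand apart left out, at −0.23 (adjusted p = 0.362) and −0.25 (adjusted p = 0.0708), or in a fit of all 50 libraries, at −0.55 (adjusted p = 0.116) and −0.41 (adjusted p = 0.142). Other members passed in the fit of all 50 libraries. There 7 were lower in the difference of daf-16 effects (4.34% of all entries called, 1.82% lower). In daf-2(e1370) minus daf-2(e1368) 4 were lower (7.96% called, 3.2% lower). The median over all entries in that fit was −0.05 and −0.06 in the same order. Counts by DESeq2 and with a replicate block were higher and are given with the processing alternatives below. Under the block, calls rose over all entries too. The earlier egg lay was particular to daf-2(e1370) here as well.

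No difference between the daf-16 alleles was detected for the subunit genes. The mg54 minus mu86 differences had medians of −0.02 with daf-2(e1370), −0.07 with daf-2(e1368) and 0.06 with glp-1(e2141), and no member was called in any of these (0.204%, 0.0934% and 0.0192% of all entries called; 0 at an unadjusted p under 0.05 and 0 by DESeq2 in each). The lowest and highest 95% bounds among the 18 members were −0.49 and 0.40, −0.50 and 0.39, and −0.69 and 0.49.

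In animals without a germline the members did not pass either. The daf-16 effect in glp-1(e2141) had a median of −0.08 over the members and −0.01 over all entries, and ran from −0.17 ± 0.09 for pbs-2 to 0.08 ± 0.09 for rpn-8. No member was called by edgeR, where 5.02% of all entries were, and 1 member, pas-6, had an unadjusted p under 0.05. By DESeq2 pas-6 passed narrowly (−0.12, adjusted p = 0.0499). Levels of pas-6, an alpha-ring gene, were 84.4 ± 3.58 CPM in the single mutant, 91.5 ± 1.86 with mg54 and 91.4 ± 2.40 with mu86. For rpt-2 the 5 glp-1(e2141) libraries spread widely, at 87.7, 89.7, 59.2, 35.7 and 76.5 CPM, as did its doubles, at 39.4 to 100.0 CPM. The 95% interval of its effect was accordingly broad, from −0.53 to 0.39. In pbs-4 the 5 glp-1(e2141) libraries stood at 83.1, 74.4, 68.3, 70.2 and 76.8 CPM, against 72.8 to 82.8 CPM with mg54 and 73.1 to 89.7 CPM with mu86, and the groups overlapped. Strain means over the 3 glp-1 strains were 54.9 ± 7.20, 60.1 ± 3.35 and 63.1 ± 7.29 CPM for pbs-2 and 126 ± 15.8, 125 ± 9.18 and 128 ± 14.5 CPM for rpn-2. Over all 18 members, strain means ran from 52.2 to 128 CPM in these strains and from 113 to 616 CPM in WT and the daf-2 strains. Each family was scaled apart for these means.

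Set directly against glp-1(e2141) in a fit of all 50 libraries, the daf-16 effect of daf-2(e1370) differed for 1 member. This was pas-5, with the daf-16 effect of daf-2(e1370) below that of glp-1(e2141) by −0.56 ± 0.16 (adjusted p = 0.0246), where 7.24% of all entries passed and 2.85% were lower. In the separate fits of the families, the effect on pas-5 was −0.50 ± 0.11 in daf-2(e1370) and 0.02 ± 0.08 in glp-1(e2141). Levels of pas-5 were 246 ± 61.7 CPM in daf-2(e1370), 348 ± 39.1 and 353 ± 37.5 in its doubles, and 94.0 ± 8.18, 93.3 ± 7.12 and 91.6 ± 9.16 in glp-1(e2141) and its doubles. The call was lost without daf-2(e1370) replicate 2 or 3 or glp-1(e2141) replicate 0, with adjusted p up to 0.0755, and with the 5 libraries that stand apart left out (−0.27, adjusted p = 0.237). For pbs-4 and pbs-7 the differences were −0.50 ± 0.16 and −0.44 ± 0.15, and they did not pass (adjusted p = 0.0541 and 0.0669).

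Subunit transcripts stood at lower CPM in glp-1(e2141) than in WT, in every library of each. With all 50 libraries scaled together, glp-1(e2141) stood at 18.4% of the WT mean for rpt-2 and 45.2% for pbs-4, the lowest and highest of the 18, with a median of 32.0%. The highest glp-1(e2141) library was below the lowest WT library for every member, for example 93.3 against 356 CPM for rpt-2 and 87.2 against 145 CPM for pbs-4. The median was 34.2% over core members and 27.1% over cap members. No test was made, because temperature, the germline and the strain family change together here and cannot be told apart. With each family scaled apart, summed CPM of the oogenic germline markers tested was 55.7 to 67.8 over 6 genes in glp-1(e2141). In WT it was 8540 to 13500 over 20 genes.

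The balance of core and cap transcripts also stood apart between the families, though no test was made. Temperature, the germline and the strain family again change together, and the part of coding length was not tested. The log2 ratio of summed core to summed cap CPM, which library scaling cannot change, was −0.77 ± 0.13 in WT and −0.38 ± 0.13 in glp-1(e2141). Over the 15 glp-1 libraries it ran from −0.59 to −0.21, and over the 35 others from −1.21 to −0.58, so 1 library of each group, at −0.59 and −0.58, crosses into the other's range. Among the daf-2 strains the ratio was −0.89 ± 0.19 in daf-2(e1370), −0.78 ± 0.06 and −0.75 ± 0.04 in its doubles and −0.77 ± 0.07 in daf-2(e1368). The daf-2(e1370) libraries gave −0.80, −0.88, −1.21, −0.80 and −0.74. Only the shallow replicate 2 lay below the lowest WT library, at −0.93.

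**Figure D3:**
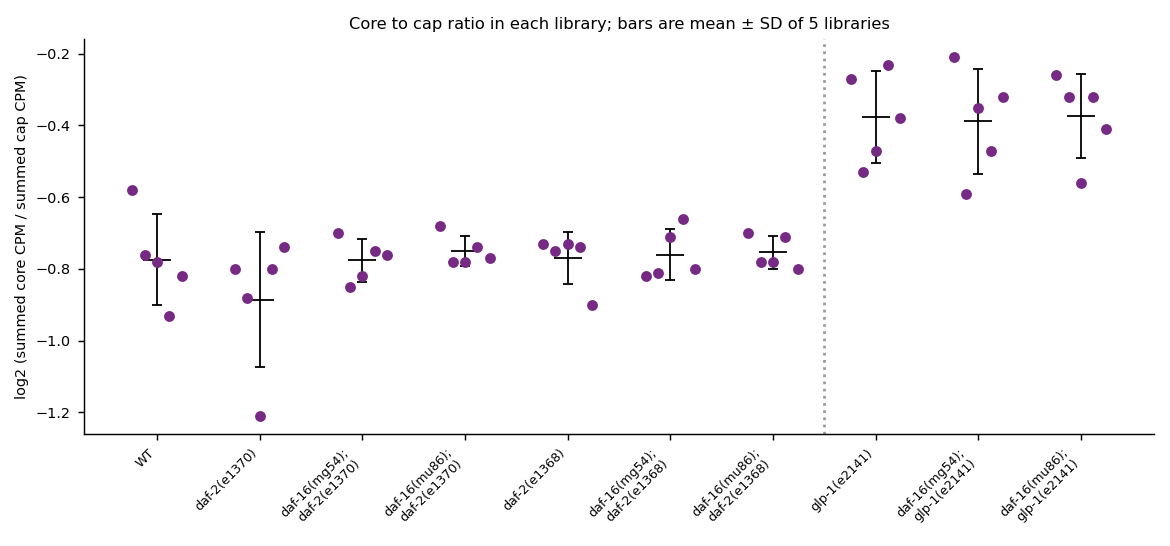
Log2 ratio of summed core CPM (8 genes) to summed cap CPM (10 genes) in each library (points), with mean ± SD of 5 libraries (bars), by strain, with the glp-1 strains right of the dotted line. The glp-1 libraries lie between −0.59 and −0.21, and daf-2(e1370) replicate 2 is the lowest point at −1.21.

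In the daf-16 effect of daf-2(e1370), the median was −0.38 over 8 core members (5 lower) and −0.30 over 10 cap members (8 lower). Of all entries 13.3% were lower there. By ring and role, 2 of 3 alpha-ring members (median −0.40), 3 of 5 beta-ring members (−0.36), 5 of 5 ATPases (−0.33) and 3 of 5 non-ATPases (−0.29) were lower. Without the 5 libraries that stand apart, 1, 2, 0 and 0 of them were lower in the same order. The medians were then −0.22, −0.16, −0.13 and −0.09, and 12.4% of all entries were lower. In daf-2(e1370) minus WT, the lower members were 4 of 8 in the core and 5 of 10 in the cap, with medians of −0.33 and −0.28. Of all entries 8.4% were lower there. The difference between core and cap was not tested, nor was the part of the core members' shorter coding sequences in it.

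High and low libraries were shared by most of the 18 members. Each member's log2 CPM was set against its mean over the 35 libraries of WT and the daf-2 strains, and the median of these deviations was taken for each library. In 12 of the 35 libraries at least 16 members lay below their own mean, and in 10 no more than 2 did. In daf-2(e1370) the medians were −0.22, −0.10, −0.64, −0.29 and −0.05. In daf-16(mg54);daf-2(e1370) they were 0.26, 0.21, −0.13, −0.01 and 0.11, and in daf-16(mu86);daf-2(e1370) 0.28, 0.26, −0.08, −0.03 and 0.09. Replicates 0 and 1 of the doubles were the high ones, and their replicate 2 lay within the range of daf-2(e1370). WT spread over 0.13, 0.23, −0.06, −0.14 and 0.05.

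**Figure D4:**
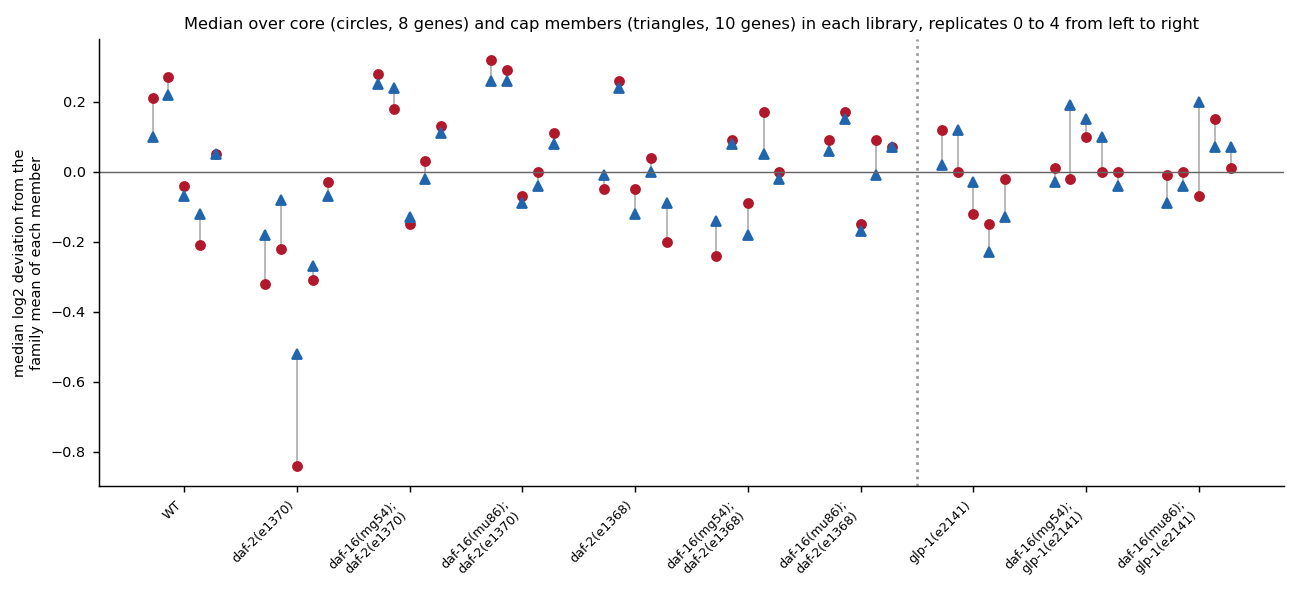
Median log2 deviation of the core (circles, 8 genes) and cap members (triangles, 10 genes) from each member's family mean (vertical axis) in each library, replicates 0 to 4 from left to right within a strain. Core and cap points lie close together in most libraries, with the widest gap in daf-2(e1370) replicate 2, at −0.84 for the core and −0.52 for the cap.

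Oogenic germline markers moved with the members across replicates. Ordered by the summed CPM of the 20 oogenic markers tested, the 5 libraries of a strain came in the same order as by the members' median deviation in 5 of 7 strains: WT, both daf-2(e1370) doubles, daf-2(e1368) and its mg54 double. In WT the sums were 12000, 13500, 9300, 8540 and 10700 CPM in replicates 0 to 4. In daf-16(mg54);daf-2(e1370) they were 13600, 13200, 8560, 10300 and 11800 CPM. The 4 deep daf-2(e1370) libraries also followed the order, at 9820, 10800, 9610 and 12100 CPM in replicates 0, 1, 3 and 4, while replicate 2 had the highest sum, 12700 CPM, and the lowest members.

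The oogenic sum ran from 9610 to 12700 CPM in the daf-2(e1370) libraries, from 8560 to 13600 with mg54, from 8640 to 14400 with mu86 and from 8540 to 13500 in WT. These ranges overlapped, as did those of the members' median deviations, −0.64 to −0.05 in daf-2(e1370) and −0.13 to 0.28 in its doubles. In the daf-16 effect of daf-2(e1370), glh-1, a germline helicase gene, was lower (−0.28 ± 0.08, adjusted p = 0.0107), rec-8, a meiotic cohesin gene, was higher (0.30 ± 0.10, adjusted p = 0.0255), and the other 18 oogenic markers did not pass, with a list median of −0.14. Without the 5 libraries that stand apart, glh-1 did not pass (−0.26, adjusted p = 0.0521), while rec-8 (0.19, adjusted p = 0.0474) and the eggshell gene cpg-2 (0.47, adjusted p = 0.034) were higher, with a list median of 0.03. Of all entries 27.6% were called in this comparison, and 26.7% without the 5 libraries. None of the oogenic markers tested was at 0 across a strain. The part of germline content in the members' levels was not tested.

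**Figure D5:**
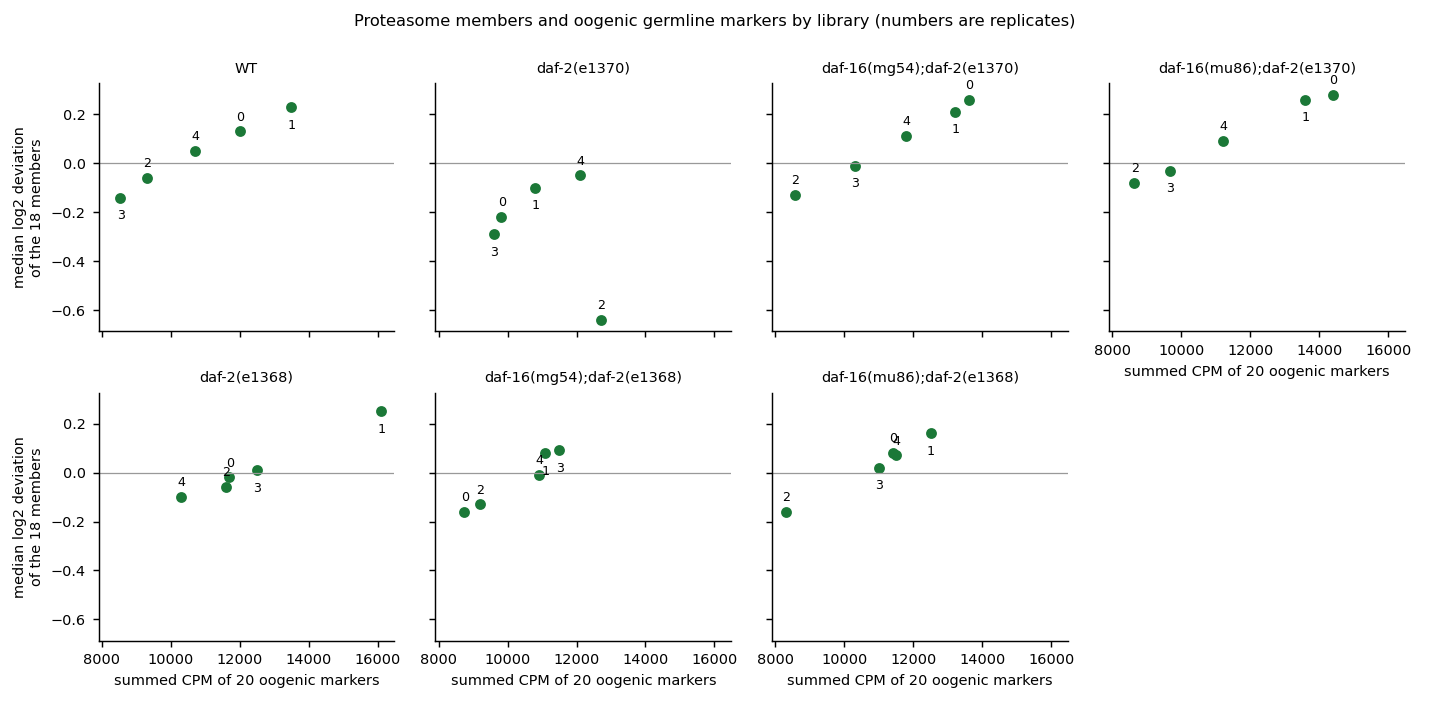
Median log2 deviation of the 18 members (vertical axis) against the summed CPM of 20 oogenic germline markers (horizontal axis) for each library of WT and the daf-2 strains, with replicate numbers beside the points. In 5 of the 7 panels both measures give the same order, and in daf-2(e1370) replicate 2 departs, at −0.64 and 12700 CPM.

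With all libraries kept, the called markers of other tissues gave no single direction. Of the markers tested in the daf-16 effect of daf-2(e1370), 0 of 24 sperm markers passed, where 27.6% of all entries were called. In the intestine list ges-1, a gut esterase gene, was higher (1.61 ± 0.06, adjusted p = 2.03e-20), while the peptide transporter gene pept-1 (−0.76 ± 0.15, adjusted p = 0.000166) and the metallothionein gene mtl-2 (−0.58 ± 0.15, adjusted p = 0.00353) were lower. The muscle myosin gene myo-3 (1.05 ± 0.33, adjusted p = 0.0165), the cuticle collagen genes rol-6 (2.05 ± 0.68, adjusted p = 0.0234) and bli-1 (1.40 ± 0.46, adjusted p = 0.0205) and the synaptic gene unc-13 (0.92 ± 0.19, adjusted p = 0.000275) were higher. The pharyngeal troponin T gene tnt-4 was lower (−1.53 ± 0.50, adjusted p = 0.0192). The other markers of these lists, 4 of 5 in the pharynx, 5 of 6 in body wall muscle, 3 of 5 in the hypodermis, 5 of 6 in neurons and 3 of 6 in the intestine, did not pass. Without the 5 libraries that stand apart, myo-3 (0.05, adjusted p = 0.879), rol-6 (1.77, adjusted p = 0.071), bli-1 (0.56, adjusted p = 0.303) and mtl-2 (−0.30, adjusted p = 0.0885) no longer passed, while ges-1, pept-1, unc-13 and tnt-4 did. Under that setting 4 of 5 pharynx markers were lower, from −2.03 for tnt-4 to −1.21 for tnc-2, as were 2 of 6 body wall muscle markers, 3 of 6 intestine markers, 1 of 5 hypodermis markers and 2 of 24 sperm markers. Among the markers of these lists, only ges-1 and unc-13 passed as higher under that setting, so most calls there were lower. Of all entries 26.7% were called in that fit and 12.4% were lower. The part of tissue content was not tested.

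Values of subunit genes that share an entry with neighbours cannot be credited to the subunit alone. Of the 11 such entries tested, 9 were lower in the daf-16 effect of daf-2(e1370), where 13.3% of all entries were lower. These 9 ran from −0.44 ± 0.10 for the entry with pas-2 to −0.26 ± 0.06 for that with pas-1. Those with pas-4, pbs-5, pbs-6, rpt-4, rpn-3, rpn-7 and rpn-10 lay between. The entries with rpn-1 (−0.18 ± 0.09, adjusted p = 0.146) and rpn-6.2 (−0.12 ± 0.05, adjusted p = 0.0801) did not pass. Without the 5 libraries that stand apart, 1 of the 11 was lower, the entry shared by C36B1.13 and pas-4 (−0.24, adjusted p = 0.029), and the median was −0.16. In that fit 12.4% of all entries were lower, so 1 of 11 is close to that share. In glp-1(e2141) the entry shared by K05C4.2 and pbs-5 was lower than in the doubles (−0.25 ± 0.06, adjusted p = 0.0194), and 11 others did not pass, where 5.02% of all entries were called.

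The entries with pas-3 and rpn-9 were listed at 0 in all 50 libraries. The entry shared by panl-2 and rpn-6.1 was listed at 0 in all 35 libraries of WT and the daf-2 strains, and held 2277 to 2987 fragments in glp-1(e2141), 2401 to 4160 in daf-16(mg54);glp-1(e2141) and 2268 to 3620 in daf-16(mu86);glp-1(e2141). Such zeros may be estimates that failed, so they give no level and no fold. Within the glp-1 strains this entry had a daf-16 effect of −0.04 ± 0.10 (adjusted p = 0.903). The entry C56G2.7, which RefSeq pairs with the ubiquitin receptor gene rpn-13 but which the naming rule does not take, had a daf-16 effect of −0.37 ± 0.09 in daf-2(e1370) (adjusted p = 0.00251), and of −0.16 without the 5 libraries that stand apart (adjusted p = 0.18).

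Of 4 proteasome partners tested, the deubiquitinase gene usp-14 (−0.38 ± 0.10, adjusted p = 0.00283) and aip-1, which encodes an arsenite-inducible proteasome-associated protein (−0.28 ± 0.09, adjusted p = 0.0175), were lower in the daf-16 effect of daf-2(e1370). The tankyrase-related gene pme-5 (0.61 ± 0.13, adjusted p = 0.000374), was higher, and dss-1, a small lid subunit gene, did not pass (−0.15 ± 0.17). None of 5 genes linked to proteasome transcription passed, skn-1 standing at 0.11 ± 0.08 (adjusted p = 0.321). Nor did the 2 ubiquitin genes tested, ubq-1 (0.06 ± 0.11) and ubl-1 (−0.08 ± 0.10), or the shuttle gene ubql-1 (−0.11 ± 0.08). Of all entries 27.6% were called in this comparison and 13.3% were lower.

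In the daf-16 effect of daf-2(e1370), 27.6% of all entries were called and 13.3% were lower. Upstream of the proteasome, 1 of 7 genes of the segregase that extracts tagged proteins was lower, its cofactor ubxn-2 (−0.30 ± 0.09, adjusted p = 0.00982). Among 11 E2 enzymes, which carry ubiquitin, ubc-13 alone was lower (−0.28 ± 0.09, adjusted p = 0.0177). Of 17 cullin ligase genes, the Skp1-related genes skr-5 (2.75 ± 0.51, adjusted p = 0.000107) and skr-4 (1.85 ± 0.19, adjusted p = 2.29e-09) were higher, and cul-6 (−0.59 ± 0.15, adjusted p = 0.00319) and rbx-1 (−0.34 ± 0.10, adjusted p = 0.0128) were lower. Of 7 deubiquitinases cyld-1 was higher (0.28 ± 0.08, adjusted p = 0.00791). The counts of the segregase, E2, cullin and deubiquitinase lists were near or below the shares of all entries. All 4 tested genes of the cytosolic chaperonin, which folds newly made proteins, were lower, from cct-1 (−0.46 ± 0.11) and cct-4 (−0.40 ± 0.09) to cct-6 (−0.30 ± 0.09) and cct-7 (−0.24 ± 0.09), with adjusted p from 0.000708 to 0.0354. The daf-16 effects had medians of −0.35 for the chaperonin, −0.22 for the partners, −0.20 for the segregase, −0.16 for deubiquitinases, −0.07 for cullin ligases and −0.06 for E2 enzymes, beside −0.33 for the proteasome members, and the differences between lists were not tested.

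Several of these calls also rested on the libraries that stand apart. Without the 5, none of the chaperonin genes passed, from −0.27 for cct-1 (adjusted p = 0.0779) to −0.10 for cct-6 (adjusted p = 0.476). Nor did usp-14 (−0.16, adjusted p = 0.226), aip-1 (−0.08, adjusted p = 0.532), ubxn-2 (−0.09, adjusted p = 0.425), ubc-13 (−0.07, adjusted p = 0.596) or rbx-1 (−0.10, adjusted p = 0.446). The genes pme-5 (0.39, adjusted p = 8.8e-06), skr-4 (1.65, adjusted p = 3.65e-13), skr-5 (2.46, adjusted p = 0.00074) and cyld-1 (0.27, adjusted p = 0.00028) were still higher and cul-6 (−0.64, adjusted p = 0.00519) still lower. Newly past the threshold were rbx-2 (0.31), skr-12 (0.73) and ubc-25 (0.35), all higher. In that fit 26.7% of all entries were called and 12.4% were lower.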

How the data were processed

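Per the labels' protocols, RNA came from whole young adults, polyadenylated RNA was sequenced in paired reads of 100 cycles, and each strain had 5 libraries described as separate biological samples. The authors deposited estimated counts of fragments per gene entry. Per the submitters' processing notes, reads were handled with Cuffdiff 2.1.1, Cufflinks, Bowtie2 2.1.0, TopHat2 2.0.9, cutadapt and FastQC 0.10.1, listed here in no order, and the build was ce10. The deposited values are not all whole (72.2% of those above 0 lie within 0.02 of a whole number) and were rounded before testing.

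Of 34207 entries, 314 had no gene name (0.187 to 0.48% of fragments per library) and were left out, and 849 entries that repeated a name and locus were summed into 414. Another 4488 entries named several genes and were tested but credited to no single gene. Loci with a strain mean of at least 1000 fragments but 0 in all libraries of another strain of the family were left out of the fit: 10 loci (915 entries) for WT and the daf-2 strains and 1 locus (164 entries) for the glp-1 strains.

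Entries passing edgeR's filterByExpr (11774 for WT and the daf-2 strains, 10391 for the glp-1 strains, 12340 over all 50 libraries) were tested with edgeR 4.0.16 (R 4.3.3, TMM scaling, robust quasi-likelihood fit, strain as the only term), with Benjamini-Hochberg adjustment over all entries. All 18 members passed the filter in both families. The script was tested on simulated counts. Library totals limit precision, and daf-2(e1370) replicate 2, at 2.37 in units of 1e6 fragments, is the least precise.

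All members are named. Full values are given for the core and cap members with the largest and smallest daf-16 effect in daf-2(e1370), and list genes that passed there are named. The members and lists were chosen with earlier results of these data known. Replicate numbers occur in all strains. Same-numbered libraries of the mg54 and mu86 doubles of daf-2(e1370) deviated together, with correlations of 0.64 to 0.85 over entries, and those of daf-2(e1368) and its mg54 double with 0.13 to 0.77. Alternatives were DESeq2 1.42.0, other scalings, no filter, a replicate block, other sets of libraries and each library left out in turn.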

Additional observations from a re-analysis of the deposited data

Results flagged for a closer look

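Over 60 groups of 5 libraries examined for a library far from the others, 4 such libraries were found, where chance gives about 1 in 20 groups. For rpn-2, the cap scaffold gene, daf-2(e1370) replicate 2 stood at 702 CPM and the other 4 libraries at 509 to 564. For pbs-4, replicate 2 of daf-16(mg54);daf-2(e1370) stood at 160 CPM, below 194 to 204 in the others, and replicate 3 of daf-16(mu86);glp-1(e2141) at 89.7 CPM, above 73.1 to 77.8. The log2 ratio of core to cap was −0.90 in daf-2(e1368) replicate 4 and −0.75 to −0.73 in the other 4.

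The daf-16 effect differed between strains by a direct test in edgeR for a pair of members. The ATPase gene rpt-2 differed by −0.45 ± 0.13 between daf-2(e1370) and daf-2(e1368) (adjusted p = 0.0436), and the alpha-ring gene pas-5 by −0.56 ± 0.16 between daf-2(e1370) and glp-1(e2141) (adjusted p = 0.0246). Of all entries 4.71% and 7.24% passed in these tests. With each of 30 libraries left out in turn, the rpt-2 call was lost for 24 and the pas-5 call for 3. Neither passed without the 5 libraries that stand apart (adjusted p = 0.362 and 0.237) or on the strains compared only (0.095 and 0.0643).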

How the results depend on the processing

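No result reversed under the alternatives run. The 13 members lower in the daf-16 effect of daf-2(e1370) became 3 without the 5 libraries that stand apart, 7 when fitted on the strains compared only and 9 to 14 with each library left out in turn. Other scalings, DESeq2, no filter, the kept loci and all 50 libraries in one fit gave 13 to 15. For daf-2(e1370) minus WT, the 9 became 2 on the strains compared only and 0 to 11 with each library left out. The single call in daf-2(e1370) minus daf-2(e1368) became 0 without the 5 libraries and on the strains compared only, 2 with loci at 0 kept, 3 by DESeq2, 4 with all 50 libraries, 8 with upper-quartile factors and 0 to 5 with each library left out. The 4 with all 50 libraries (pas-5, pas-6, pbs-4 and pbs-7) do not include rpt-2 (adjusted p = 0.142), nor do the 7 below (adjusted p = 0.116). For the daf-16 effect of daf-2(e1370) against that of daf-2(e1368), the single call became 0 without the 5 libraries, without replicates 0 and 1 of both doubles and on the strains compared only, 2 with loci kept, 5 with upper-quartile factors, 7 by DESeq2 and with all 50 libraries, and 0 to 6 with each library left out. Against that of glp-1(e2141) it became 0 under the same 3 reduced sets, 3 with DESeq2's size factors, 4 by DESeq2 and with upper-quartile factors, and 0 to 4 with each library left out. In glp-1(e2141) DESeq2 called 1 member and edgeR 0. The cause of these shifts was not tested beyond the fewer samples. Shares of all entries called were computed without daf-2(e1370) replicate 2, without the 4 or 5 libraries, with all 50 and with the block. For the other settings they were not, so a change in member counts there cannot be told from one over all entries.

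With the replicate number as a block, 15 members were called in the daf-16 effect of daf-2(e1370), 15 in daf-2(e1370) minus WT, 15 in daf-2(e1370) minus daf-2(e1368), 15 in the difference of daf-16 effects between these alleles and 6 in that between daf-2(e1370) and glp-1(e2141). Over all entries the share called under the block was 48, 28.4, 25.2, 31.2 and 10.2% in the same order, against 27.6, 18.2, 8.43, 4.71 and 7.24% without it, so calls rose over all entries too. Same-numbered libraries of daf-2(e1370) and its mg54 doubles correlated at 0.02 to 0.58, against a median of −0.03 for unlike numbers. They correlated best with their own number in 4 of 5, as did those with the mu86 doubles (0.03 to 0.59). For daf-2(e1370) and WT the range was −0.05 to 0.32, best with their own number in 2 of 5. Replicate numbers thus went with some shared deviation, unevenly between strains, and its source was not tested. The block changed no call between the mg54 and mu86 doubles, which deviated together. With the mean of log2 CPM in place of summed CPM, the core to cap ratio was −0.39 in WT, −0.49 in daf-2(e1370) and −0.05 in glp-1(e2141).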
